A study of Mus musculus with 2 samples.

Results

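In the pancreatic tumour library of EL1 mice, a small group of cells carried transcripts of Atp4b, the β subunit of the gastric proton pump. Cells were selected on Atp4b itself, as EL1 barcodes with at least 500 genes, at least 1000 UMIs, at most 20% mitochondrial UMIs and at least 2 Atp4b UMIs (a UMI is 1 counted transcript molecule). This rule gave 66 Atp4b-positive cells of 1113 kept EL1 cells, or 5.93% (4.62 to 7.48), and 66 of 2018 kept cells in the series. They were set against the 1030 kept EL1 cells with 0 Atp4b UMIs. The 17 cells with 1 UMI were kept apart from both.

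The series holds 2 droplet libraries of pancreatic tumour cells, 1 per group, from mice aged 6 weeks. EL1 mice (FVB/N, EL1-Luc/EL1-TAg) carry SV40 large T antigen and firefly luciferase, each driven by the pancreatic elastase I promoter, which is active in acinar cells. WTg mice came from crossing EL1 with a CAG-Mettl3 line made in C57BL/6, so both groups carry the tumour transgenes and WTg alone carries a Mettl3 coding sequence, driven in all tissues by CAG, with a strain background that changes together with it. The number and sex of animals per library were not given in the sources used here. Tumours were digested to single cells with collagenase and DNase, and the labels call the cells epithelial. With 1 library per group there was no replicate and no test. Bracketed ranges are exact 95% intervals that cover counting error only. The kept cells had medians of 26543 UMIs in EL1 and 34836 UMIs in WTg. Of the barcodes, 15 occurred in both libraries, none was kept in both, and 3 belonged to Atp4b-positive cells. Mettl3 was at 15.1 CPM (counts per 1e6 UMIs, over the summed cells) in EL1 and at 66.7 CPM in WTg.

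The gastric H+/K+ ATPase exchanges cytoplasmic protons for potassium and acidifies the stomach. Its catalytic α subunit is Atp4a, and Atp4b is the glycosylated β subunit that the α subunit needs to reach the membrane. In the adult the pair marks parietal cells, which are rich in mitochondria and depend on Esrrg, an orphan nuclear receptor that drives genes of oxidative metabolism. Klk1 is tissue kallikrein, a serine protease that releases kinins from kininogen and is made in salivary gland, kidney and pancreas. Ldhb is the lactate dehydrogenase subunit found in oxidative tissues.

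Atp4b (chr8:13386205-13396825, GRCm38, - strand) had 2492 UMIs among 3069420 UMIs of the 66 cells, or 812 CPM (780 to 844). Single cells held from 2 to 207 Atp4b UMIs with a median of 16, or from 28.9 to 4974 CPM with a median of 560. By the rule the comparison cells had none. Of the Atp4b-positive cells, 10 had 2 to 4 UMIs, 28 had 5 to 19 and 28 had 20 or more. The Atp4b level was thus spread over a wide range among cells and was not held by a few of them: the 5 cells with most Atp4b UMIs held 29.9% of these UMIs. Gm45410 lies over Atp4b on the opposite strand.

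**Figure D1:**
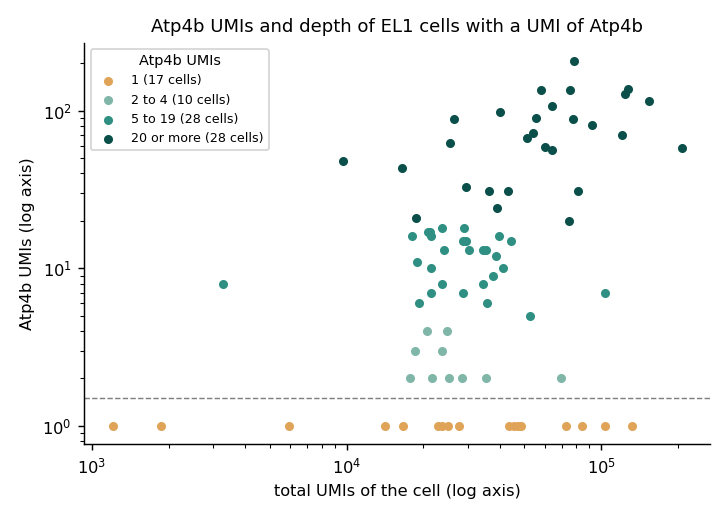
Atp4b UMIs (y axis, log) against the total UMIs (x axis, log) of each EL1 cell with a UMI of Atp4b; points are cells, colours are the ranges of Atp4b UMIs, and the dashed line separates the 17 cells with 1 UMI from the 66 cells with 2 or more. Cells with 20 or more Atp4b UMIs span depths from 9650 to 207723 UMIs.

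Depth moved with the number of Atp4b UMIs. Atp4b-positive cells had a median of 34872.5 UMIs (3283 to 207723) and the comparison cells 26048.5. The median was 24274.5 UMIs in the cells with 2 to 4 Atp4b UMIs, 28786 with 5 to 19 and 59255.5 with 20 or more. Per UMI of the cell no such order was seen, since the Spearman correlation of Atp4b CPM with total UMIs was 0.08 over the 66 cells, which share 1 library. Mitochondrial UMIs were a median 8.18% of a cell's UMIs in the Atp4b-positive cells and 4.03% in the comparison cells. Between 10000 and 50000 UMIs, and under a stricter filter with up to 10% mitochondrial UMIs, the log2 ratios of the markers given next ran from 4.19 to 8.38 and from 4.69 to 8.26.

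The other markers given for these cells were Atp4a, Klk1, Ldhb and Esrrg, and all had their higher level in the cells chosen by Atp4b. These markers came with the choice of the cells, so their levels are a description. Atp4a (chr7:30712209-30725534, + strand), the catalytic partner of Atp4b, was at 499 CPM (474 to 524) against 1.76 CPM (1.34 to 2.26), a log2 ratio of 8.15 (7.78 to 8.55). It was also the most uneven of the given markers: 17 of the 66 cells had no Atp4a UMI, the median cell was at 183 CPM, the highest at 6369 CPM, and 5 cells held 44.2% of the UMIs. Klk1 (chr7:44225360-44229618, + strand) was at 14043 CPM against 160 CPM, a log2 ratio of 6.45 (6.41 to 6.49). Every Atp4b-positive cell had Klk1, from 201 to 46406 CPM with a median of 12025.

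Ldhb (chr6:142490249-142507957, - strand) was at 470 CPM against 2.22 CPM, a log2 ratio of 7.72 (7.39 to 8.08). Each of the 66 cells had at least 1 Ldhb UMI and 61 had 2 or more, with a median of 291 CPM and a maximum of 2458 CPM. In the comparison cells Ldhb was seen in 36 of 1030. Esrrg (chr1:187608791-188214885, + strand) was at 278 CPM against 11.1 CPM, a log2 ratio of 4.65 (4.47 to 4.83). Only 5 Atp4b-positive cells lacked an Esrrg UMI, and the median was 207 CPM. Genes on the opposite strand overlap Klk1 (Gm10109) and Esrrg, and Gm38315 overlaps Esrrg on the same strand.

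Shares of cells were compared after each cell was thinned at random to 5000 UMIs, which left out 1 Atp4b-positive and 135 comparison cells. Atp4a was then found in 52.3% of Atp4b-positive cells (39.5 to 64.9) and 0.447% of comparison cells (0.122 to 1.14). Klk1 was found in 98.5% and 6.82%, Ldhb in 80.0% and 1.12%, and Esrrg in 52.3% and 4.80%. Cells defined by immune markers, taken from all kept EL1 cells whatever their Atp4b, were used as a background: of 29 such cells deep enough, none had Atp4a or Esrrg, 13.8% (3.89 to 31.7) had Klk1 and 6.90% (0.846 to 22.8) had Ldhb. All 4 markers had higher shares in the Atp4b-positive cells than in the immune set. For Klk1, the share of comparison cells lay inside the interval of the immune set. Ldhb had 13 UMIs in the 52 immune cells and 76 in the 1030 comparison cells, so the immune set is no background for it. Before thinning the shares in Atp4b-positive cells were 74.2% for Atp4a, 100% for Klk1, 100% for Ldhb and 92.4% for Esrrg. The immune cells had a median of 7188 UMIs, and none of the 52, chosen without regard to Atp4b, had an Atp4b UMI. They are therefore also among the 1030 comparison cells and are no separate group.

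The markers occurred together in single cells. At least 2 UMIs of all 4 other markers were found in 37 of the 66 Atp4b-positive cells, of 3 markers in 22, of 2 in 6 and of 1 in 1 cell. Among comparison cells 882 of 1030 had none of the 4 at this level and 1 had all 4. The 17 cells with 1 Atp4b UMI lay nearer the comparison cells, with 9 having none, 4 having 1, 2 having 2, 2 having 3 and 0 having 4. At the threshold, the 6 cells with exactly 2 Atp4b UMIs had 3802 to 27725 CPM of Klk1. Of the 17 cells with 1 UMI, 4 were over 1000 CPM of Klk1 (1071 to 10574) and 9 had no Klk1 UMI.

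**Figure D2:**
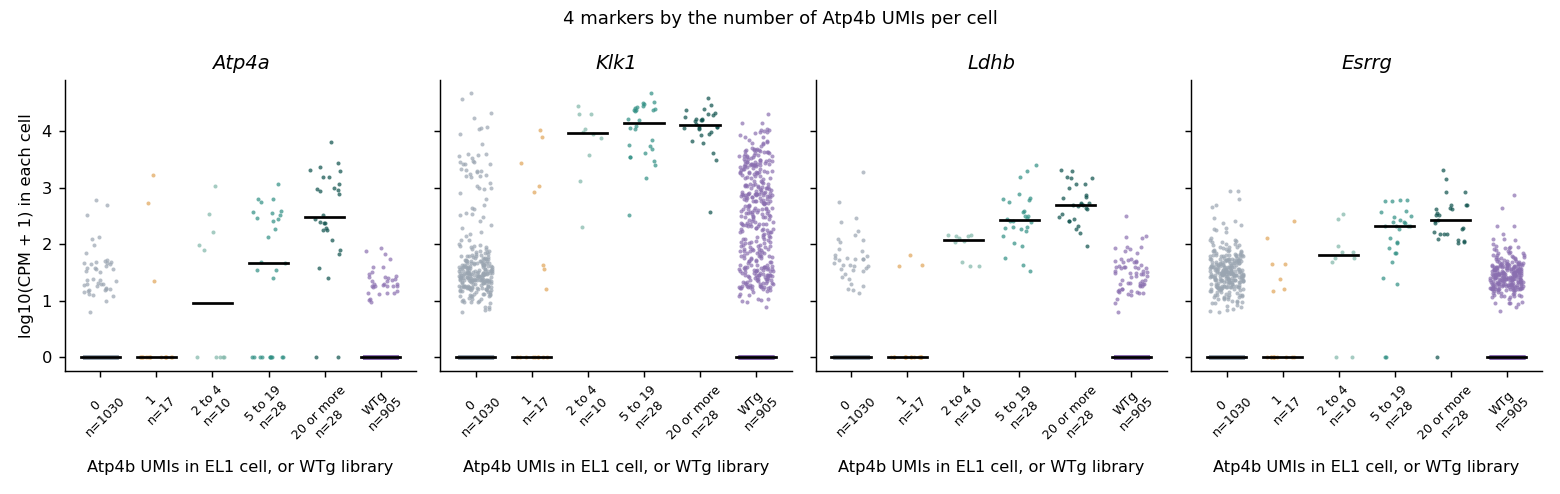
Level of Atp4a, Klk1, Ldhb and Esrrg in each cell (y axis, log10 of CPM plus 1) by the number of Atp4b UMIs of the cell, with all WTg cells at the right; points are cells and bars are medians. Klk1 is near its full level from 2 Atp4b UMIs on, whereas the medians of Ldhb, Esrrg and Atp4a climb with Atp4b.

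Within the Atp4b-positive cells, the markers followed Atp4b to different degrees. From 2 to 4, through 5 to 19, to 20 or more Atp4b UMIs, summed Ldhb was at 112, 374 and 568 CPM, Esrrg at 98.1, 200 and 341 CPM, and Atp4a at 175, 200 and 686 CPM. Klk1 showed no such order, at 10692, 16114 and 13587 CPM. The Spearman correlation with Atp4b CPM over the 66 cells was 0.67 for Ldhb, 0.57 for Esrrg, 0.43 for Atp4a and 0.07 for Klk1. These are descriptions over cells of 1 library, whose CPM share the same totals. Klk1 was thus high in nearly all of the cells whatever their amount of Atp4b.

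Sequences before the start sites of these genes are shown because Esrrg was among the given markers and its receptor family is known to bind a single AAGGTCA element. The RefSeq promoter table (GRCm38.p6) had entries for 4 of the 5 given markers and for 13 of the 15 genes with the highest ratios described below. Atp4b, Fa2h and Krt4 had none. The 250 bases before the start were searched on both strands. AAGGTCA was present in 2 of the 13 promoters, Klk1 and Adcy1, against 1340 of all 32851 promoters (4.08%). The longer form TNAAGGTCA was present in 0 of the 13, against 374 of all (1.14%). A further search, for AGGTCA alone, was added after the Klk1 and Ldhb sequences had been read, and it also counts every match of the longer forms. AGGTCA was present in 11 of the 13 and in 4607 of all promoters (14.0%). That count is not an independent result: 6 of the 11 are kallikreins with near-identical sequence, and Ldhb was one of the sequences that prompted the search. Without the kallikreins and Ldhb, 4 of 6 had it (Actn2, Tdrd9, Kng2 and Adcy1). Over all tested genes AGGTCA was in 14.6% of the promoters of genes at least 2-fold higher in Atp4b-positive cells, 11.8% of those of genes at least 2-fold lower and 10.3% of the rest, so the larger set was near the share of all promoters. None of the 6 promoters found for the lowest genes had it, but 6 are too few to differ visibly from a share of 14.0%. A match is a run of letters and not a measured site. The sequences below run 5′ to 3′ on the gene's strand, with AGGTCA or its reverse complement TGACCT in capitals. The first capital base lies 206, 187 and 109 bases before the start in Klk1, 157 in Ldhb and 173 in Adcy1, and Atp4a has no match.
Klk1 (chr7:44225110-44225359, + strand): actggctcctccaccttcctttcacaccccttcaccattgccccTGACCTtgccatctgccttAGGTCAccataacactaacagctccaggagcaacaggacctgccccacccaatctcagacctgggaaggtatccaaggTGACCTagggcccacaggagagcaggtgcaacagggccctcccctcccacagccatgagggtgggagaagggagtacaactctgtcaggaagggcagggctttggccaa
Ldhb (chr6:142507958-142508207, - strand): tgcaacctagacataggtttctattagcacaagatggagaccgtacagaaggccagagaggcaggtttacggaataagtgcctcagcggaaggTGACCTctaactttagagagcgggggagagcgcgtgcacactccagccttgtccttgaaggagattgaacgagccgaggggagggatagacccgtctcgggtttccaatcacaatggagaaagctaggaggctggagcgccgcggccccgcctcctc
Adcy1 (chr11:7063183-7063432, + strand): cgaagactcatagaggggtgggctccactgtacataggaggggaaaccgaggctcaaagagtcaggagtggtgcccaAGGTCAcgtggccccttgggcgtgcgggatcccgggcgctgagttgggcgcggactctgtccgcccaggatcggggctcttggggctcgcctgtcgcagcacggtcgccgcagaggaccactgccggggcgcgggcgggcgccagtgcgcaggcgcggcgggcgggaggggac
Atp4a (chr7:30711959-30712208, + strand): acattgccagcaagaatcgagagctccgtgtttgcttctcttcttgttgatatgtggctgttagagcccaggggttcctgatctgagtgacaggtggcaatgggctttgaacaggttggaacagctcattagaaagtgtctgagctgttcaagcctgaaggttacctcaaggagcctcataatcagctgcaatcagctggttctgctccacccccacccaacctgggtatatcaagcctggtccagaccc

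Across all genes, 12211 had at least 50 UMIs over Atp4b-positive and comparison cells. Of these, 1371 (11.2%) were at least 2-fold higher in the Atp4b-positive cells and 2254 (18.5%) at least 2-fold lower, with a median log2 ratio of -0.09. Because the cells were chosen within this same library, these shares serve as the background for the gene lists that follow. The counting interval lay above 0 for 1355 of the 1371 higher genes and below 0 for 1989 of the 2254 lower genes. The 15 highest ratios among genes with at least 200 UMIs included Klk1 and 5 further kallikreins. Klk1b8 had a log2 ratio of 8.86 (8.17 to 9.65), Klk1b24 of 7.84, Klk1b3 of 7.74, Klk1b4 of 7.17 and Klk1b5 of 7.15. Klk1b5 was present in 62 of the 66 cells at a median of 363 CPM. These paralogs are nearly identical in sequence, so the split of reads among them is uncertain. Kng2, a kininogen and so of the family of kallikrein substrates, was at 197 CPM against 2.87 CPM (6.10, 5.79 to 6.43) and was found in 59 of the 66 cells.

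Other genes with the highest ratios belonged to different functions. Actn2, the α-actinin of striated muscle Z discs, was at 69.4 CPM against 0.293 CPM (7.89, 6.98 to 8.97) and found in 41 of the 66 cells. Tdrd9, a helicase of the germline piRNA pathway, had a log2 ratio of 7.62 (6.75 to 8.65) in 48 cells. Fa2h, which hydroxylates the fatty acids of sphingolipids, had one of 6.72 (6.06 to 7.47) in 48 cells. Adcy1, a calcium-stimulated adenylyl cyclase, had one of 5.77 (5.36 to 6.20) in 59 cells. All of these were spread over most of the Atp4b-positive cells.

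Ctrl and Krt4 were not. Ctrl, which encodes a chymotrypsin-like digestive protease, was at 165 CPM against 0.644 CPM, but 55 of the 66 cells had no UMI and 5 cells held 93.3% of them. Ctrl was at 213 CPM in WTg, above its level in the Atp4b-positive cells. Krt4, a keratin of stratified epithelium, was missing in 47 of the 66 cells, and 5 cells held 74.6% of its UMIs. High summed levels of these genes therefore describe a few cells each.

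**Figure D3:**
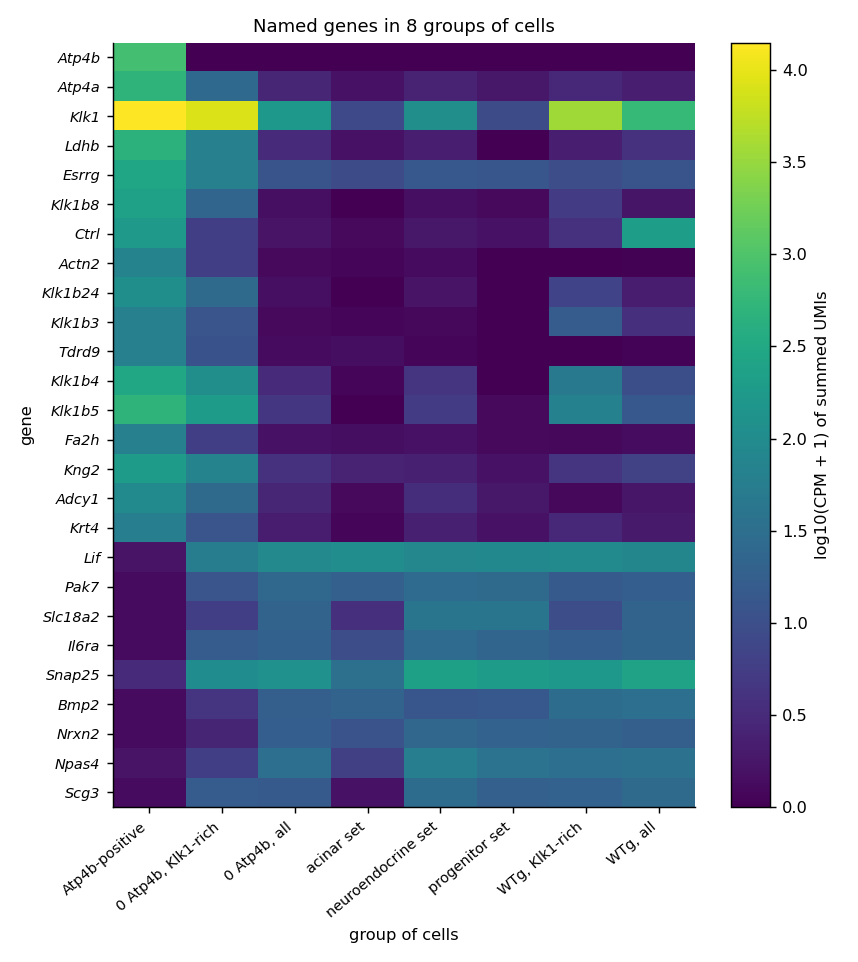
Levels of the given markers and of the genes with the highest and lowest ratios (y axis) in 8 groups of cells (x axis); colour is log10 of CPM plus 1 over summed UMIs. The Atp4b-positive cells and, at lower levels, the EL1 cells rich in Klk1 without Atp4b hold the kallikrein block, part of which is also seen in the Klk1-rich WTg cells, and the genes at the bottom are near 0 in the Atp4b-positive cells.

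The lowest ratios were held by genes almost without UMIs in the Atp4b-positive cells. Lif, an interleukin-6 family cytokine, had 2 UMIs in the 66 cells and 3035 in the comparison cells, where 446 of 1030 cells had it (log2 ratio -7.09, -10.14 to -5.24). Snap25, a t-SNARE of regulated exocytosis, had 7 UMIs against 4225 (-5.76, -7.08 to -4.72). Npas4, an activity-dependent transcription factor, had 2 UMIs against 1081. Pak7, Slc18a2 (the vesicular monoamine transporter), Il6ra, Bmp2, Nrxn2 and Scg3 (secretogranin III) had 1 UMI each. Their ratios ran from -6.15 (-11.46 to -3.67) for Pak7 to -5.39 (-10.70 to -2.91) for Scg3. These ratios pool unlike comparison cells. Scg3 was at -6.44 against the neuroendocrine set described below, but at -0.83 (-6.45 to 2.51) against the acinar set. Against the acinar set Npas4 was at -2.99 and Slc18a2 at -3.07. The other genes named here ran from -7.34 (Lif) to -3.87 (Snap25) against it.

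The proton pump was accompanied by part, and not all, of the acid secretion list. Of 20 genes, Atp4b aside, 9 reached the minimum of 50 UMIs, of which 6 were at least 2-fold higher and 2 at least 2-fold lower, with a median of 1.85 beside -0.09 for all genes. Higher were Atp4a, Clic6 (5.47), an intracellular chloride channel protein of secretory cells, Kcnq1 (3.28), the apical potassium channel that recycles potassium for the pump, Slc26a9 (2.87), a chloride transporter, Slc4a2 (1.85), the basolateral anion exchanger, and Ezr (1.49), the microvillar linker ezrin. Chrm3, the muscarinic receptor of acid secretion, was lower (-3.33). Aqp4, the basolateral water channel of parietal cells, had 0 UMIs in the Atp4b-positive cells. Cckbr, the gastrin receptor, differed by less than 2-fold (-0.57).

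Several genes of the acid secretion list were at 0 or nearly so, all of them under the minimum of 50 UMIs over both groups. Cblif, intrinsic factor, had 0 UMIs in all 66 cells, and Kcnj15, Kcnj16 and Slc9a4 had 0 as well. Slc26a7 had 2 UMIs, Hrh2, the histamine receptor, had 1 and Car2 had 1. Kcne2, the Kcnq1 partner of parietal cells, was not among these. It had 23 UMIs in 8 of the 66 cells against 11 UMIs in the 1030 comparison cells. This was more in the smaller group, although under the minimum. Of the listed parietal markers, Kcnj16 and Aqp4 were at 0. Of 8 chief and mucous cell markers 6 were at 0, and 7 were under the minimum over both groups. Tff2, the trefoil peptide of mucous neck cells, was at 618 CPM against 766 CPM in the comparison cells (-0.31). All 8 summed to 767 CPM in the comparison cells, nearly all of it Tff2, so these zeros do not set the groups apart. Sox2, a transcription factor of stomach, was at 0 and also under the minimum. The data thus hold the pump, its potassium channel and its regulator, with Chrm3 lower and Aqp4 at 0. Identity was not tested, and the cells are called Atp4b-positive here and not parietal or gastric.

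Of the remaining gastric genes, 9 of 27 were tested, 2 of them at least 2-fold higher and 5 lower, with a median of -1.18. Tfcp2l1 (3.64), a transcription factor of ion-transporting epithelia, and Gata4 (2.07), a factor of both stomach and pancreas, were higher. Anxa10 (-4.23) and Tff3 (-3.47) were lower. Ghrl (-2.28, -7.61 to 0.26) passed the 2-fold call, but its interval included 0. The sodium pump did not follow the proton pump as closely: of 8 P-type ATPase and FXYD genes tested, 1 was higher, Atp1b1 (2.20), and 2 lower, with a median of 0.03. Fxyd5, a regulator of the sodium pump, had a log2 ratio of -3.29.

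All tested tissue kallikreins were higher, 9 of 9 with a median of 7.74. This list holds Klk1 and the paralogs named above, and its genes cannot be counted as separate because of their shared sequence. The summed list was at 15400 CPM against 168 CPM. None of Klk4 to Klk15, the more distant kallikreins of the same locus, reached the minimum. A cell had a median of 13114 CPM of kallikreins in the Atp4b-positive group and 0 CPM in the comparison group.

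Genes of oxidative metabolism were higher as a block. Of 73 genes of oxidative phosphorylation, 43 were at least 2-fold higher and 0 lower, with a median of 1.08, where 11.2% of all genes were higher. Cox4i1 (2.41), a subunit of cytochrome oxidase, Atp5g3 (2.19), Atp5a1 (2.05) and Atp5b (1.41), subunits of ATP synthase, were examples. The summed list was at a median of 46587 CPM per Atp4b-positive cell (quartiles 38895 and 55149) and 20041 CPM per comparison cell (16327 and 23760), so the ranges between quartiles did not overlap. Of 29 genes of the citrate cycle and fatty acid oxidation, 22 were higher and 0 lower, with a median of 1.38. Cpt1a (2.83), which admits long-chain fatty acids to mitochondria, Etfa (2.32), Idh2 (2.02) and Mdh1 (1.69) were among them.

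The 13 mitochondrially encoded genes had a median of 0.83 and summed to 77445 CPM against 41661 CPM, with mt-Co1 at 0.89 and mt-Atp6 at 1.0. Oxidative phosphorylation and citrate cycle sums followed Atp4b CPM among the 66 cells (Spearman 0.55 and 0.53), as Ldhb and Esrrg did. Of 10 genes for estrogen-related receptors, the family of Esrrg, and their cofactors, 7 were tested. Of these, 2 were higher and 0 lower, with a median of 0.46. Ppargc1a (2.41), the coactivator of mitochondrial genes, joined Esrrg, whereas Esrra was at 0.46 and Esrrb at 0 UMIs. Of 31 genes of glycolysis and lactate, 15 were higher and 3 lower, with a median of 0.85. Slc16a7 (3.04), a monocarboxylate transporter, and Gapdh (1.73) were higher, Ldha was at 0.44, and Slc2a1 (-1.34), a glucose transporter, was lower. The lactate dehydrogenase subunits thus differed, with Ldhb far higher and Ldha within 2-fold.

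**Figure D4:**
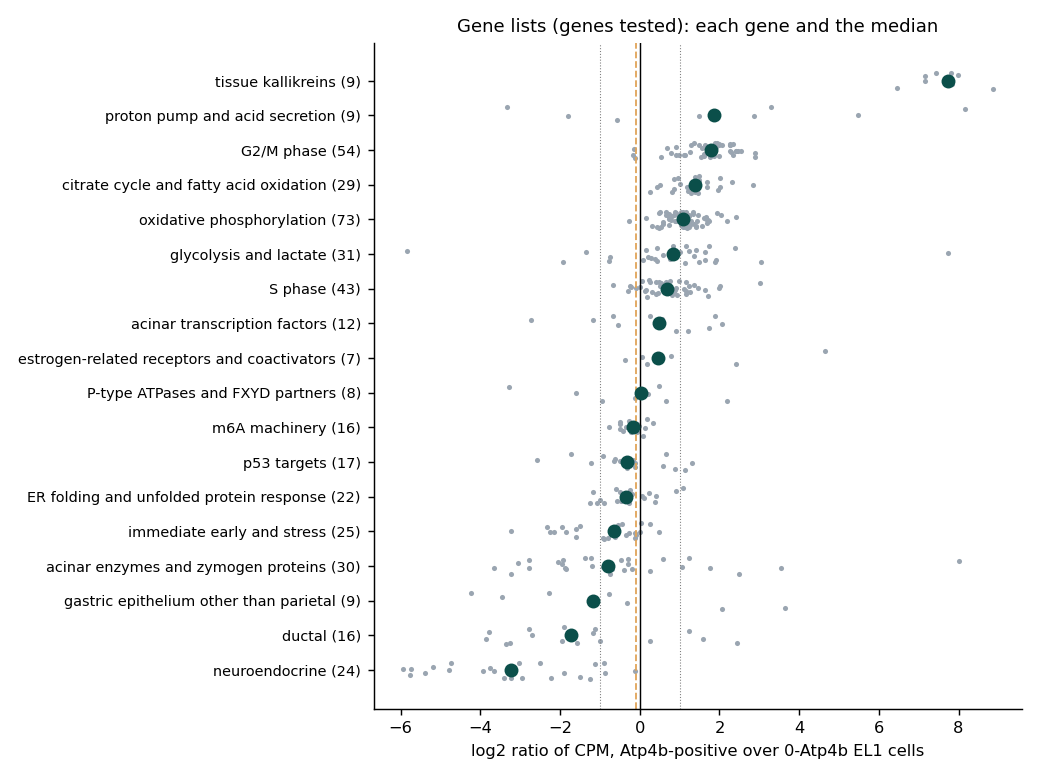
Log2 ratio of CPM (x axis) of Atp4b-positive over comparison cells for the genes of each list (y axis, number of genes tested in brackets); grey points are genes, large points medians, dotted lines mark 2-fold and the dashed line marks -0.09, the median of all genes. Kallikreins are at the top at 7.74 and the neuroendocrine list at the bottom at -3.22.

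Acinar genes were kept at different levels in these cells. Of 30 tested acinar enzymes and zymogen proteins, 6 were at least 2-fold higher and 13 lower, with a median of -0.79, and the list summed to 94149 CPM against 194204 CPM. Ctrb1, chymotrypsinogen B, was at 27378 CPM against 22908 CPM (0.26), and Clps, pancreatic colipase, was at 17102 CPM against 11358 CPM (0.59), so both of these abundant transcripts were within 2-fold. Lower were Gp2 (-3.67), Cpb1 (-3.24), Try5 (-3.05), a trypsinogen at 4221 CPM against 35005 CPM, and Prss2 (-2.79). Higher, besides Ctrl, were Reg3a (3.54), Rnase1 (2.49) and Pnliprp2 (1.76). Of 12 acinar transcription factors 4 were higher and 2 lower, with a median of 0.47: Ptf1a, which sets acinar fate, was at 1.90 and Nr5a2 at -2.73.

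Neuroendocrine and ductal genes were lower. Of 24 neuroendocrine genes tested, 21 were at least 2-fold lower and 0 higher, with a median of -3.22, where 18.5% of all genes were lower. Chga (-4.74) and Chgb (-3.40), the granins of secretory granules, were lower, and Penk and Hdc had 0 UMIs. Among the 66 cells, 5 had at least 2 UMIs each of Chga and Chgb, the rule by which 449 comparison cells formed a neuroendocrine set. The list was at a median of 100 CPM per Atp4b-positive cell and 2993 CPM per comparison cell. Of 16 ductal genes 11 were lower and 3 higher, with a median of -1.74: Sox9 (-3.77), Krt8 (-3.26) and Krt18 (-2.79) were lower, and Spp1 (2.44) and Krt7 (1.60) higher. The keratins thus differed in direction, with Krt8 and Krt18 lower and Krt7 higher.

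Against sets of comparison cells defined by a pair of genes each, the Atp4b-positive cells also stood apart in level. The acinar set (S100g and Thbs1, 95 cells), the neuroendocrine set (449 cells) and the progenitor set (Fst and Insm1, 57 cells) share some cells. The acinar and progenitor sets were 8.54% and 5.12% of kept EL1 cells, and no Atp4b-positive cell met either rule. Klk1 was at 7.21, 112 and 7.94 CPM in the acinar, neuroendocrine and progenitor sets, and at 14043 CPM in the Atp4b-positive cells. Summed oxidative phosphorylation genes were at 18696, 22367 and 21605 CPM, against 47030 CPM.

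Cell cycle genes were higher in the sum of these cells. Of 54 G2/M genes, 45 were at least 2-fold higher and 0 lower, with a median of 1.78. Of 43 S phase genes, 13 were higher and 0 lower, with a median of 0.69. Mki67 (1.91) and Top2a (1.87), markers of proliferating cells, Hmgb2 (1.60) and Rrm2 (3.0) were higher. The G2/M list was at a median of 4114 CPM per Atp4b-positive cell (quartiles 2020 and 9827) and 1139 CPM per comparison cell (808 and 2006). It did not follow the amount of Atp4b (Spearman 0.02).

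The G2/M level divided the Atp4b-positive cells. When EL1 cells were clustered with Atp4b left out, 37 of the 66 fell in a cluster of 48 cells, 25 in a cluster of 27 cells and 4 singly in other clusters. In the cluster with 25, G2/M genes were at a median of 11822 CPM per cell (6061 to 34455), and in the cluster with 37 at 2630 CPM (811 to 6494). Atp4b was at 794 and 859 CPM, a log2 ratio of -0.11 (-0.23 to 0.00). Esrrg was at 379 and 176 CPM, Mki67 at 709 and 169 CPM, and S phase genes at 3331 and 3422 CPM. Median depth was 58102 and 28635 UMIs. These genes took part in the clustering, so the differences are a description, and phase was not called. At a coarser resolution 62 of the 66 cells were in 1 cluster of 75.

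**Figure D5:**
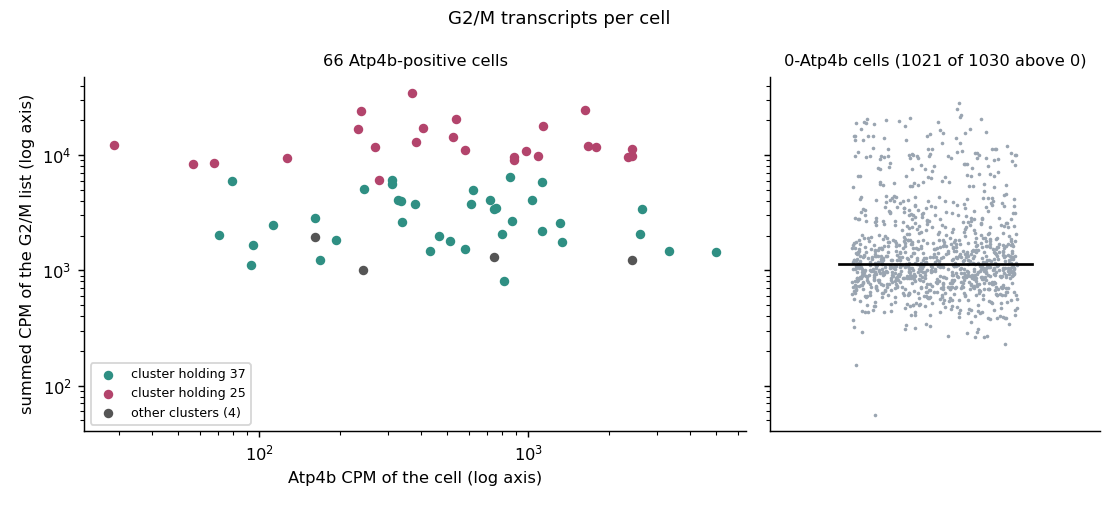
Summed CPM of the 54 G2/M genes (y axis, log) against Atp4b CPM (x axis, log) in the 66 Atp4b-positive cells, coloured by cluster, and at the right the same sum in the comparison cells above 0, with their median as a bar. Cells of the cluster holding 25 lie at 6061 CPM or above across the range of Atp4b, and the median comparison cell is at 1139 CPM.

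Cells that shared a cluster with the Atp4b-positive cells without carrying Atp4b were few. The cluster of 48 held 9 cells with 0 Atp4b UMIs, which had 17449 CPM of Klk1, 117 CPM of Ldhb and 127 CPM of Esrrg. Of all comparison cells, 32 had at least 1000 CPM of Klk1, a cut set after the values had been seen, as did 63 of the 66 Atp4b-positive cells. In those 32 cells Klk1 was at 8581 CPM, high by the cut itself. Ldhb was at 63.1, Esrrg at 63.1 and Atp4a at 24.9 CPM in them, between the Atp4b-positive cells and all comparison cells. Their oxidative phosphorylation genes summed to 29662 CPM and their acinar enzymes to 184892 CPM, against 47119 and 96433 CPM in the 63 cells. Their median depth was 10941 UMIs, lower than in either larger group.

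No cell of WTg met the rule. Atp4b had 0 UMIs in 905 kept cells and 33007683 UMIs, which allows up to 0.331% of cells with a UMI or 0.0909 CPM. Klk1 was not absent from WTg: it was at 604 CPM over all cells, and 113 cells had at least 1000 CPM. In those 113 cells Klk1 was at 3556 CPM, yet Atp4a was at 1.85 CPM, Ldhb at 1.23 CPM and Esrrg at 8.42 CPM, and their oxidative phosphorylation genes summed to 19305 CPM. In WTg, Klk1-rich cells were thus at or below the levels of all EL1 comparison cells for Ldhb and Esrrg, and near them for Atp4a. The transgene, strain background and the difference between 2 single libraries cannot be told apart.

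Other lists were read against all genes, of which 11.2% were higher and 18.5% lower. Of 25 immediate early and stress genes, 9 (36%) were at least 2-fold lower, above that share, and 0 higher (median -0.65). Egr3 was at -3.24 and Fos at -2.26. Of 22 genes of ER folding 1 (4.55%) was higher and 3 (13.6%) lower (-0.36), below the shares of all genes. Of 17 p53 targets 2 (11.8%) were higher and 3 (17.6%) lower (-0.33), near those shares. None of 16 genes of the m6A machinery passed 2-fold (median -0.16), and Mettl3 had a log2 ratio of 0.34 (-0.08 to 0.73). The 1 islet hormone gene tested, Ghrl, was at -2.28 (-7.61 to 0.26), an interval that included 0.

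Markers of other cell types were low. The 8 macrophage markers summed to 14.3 CPM in the Atp4b-positive cells and 455 CPM in the comparison cells, with 2 of 8 at 0. Neutrophil markers were at 0.326 and 84.1 CPM (4 of 5 at 0), T or NK markers at 1.30 and 3.34 CPM (4 of 5 at 0) and B cell markers at 0 and 3.28 CPM (5 of 5 at 0). Endothelial markers were at 15 and 17.1 CPM, fibroblast or stellate markers at 2.93 and 37.5 CPM and red blood cell markers at 35.8 and 88.0 CPM. Scrublet called 1 of the 66 cells a doublet, and 4 of the 1113, a share too low to say that doublets were found.

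Neighbouring genes were described within 100 kb of each pump gene and of Klk1. Next to Atp4b, Gas6, a secreted ligand of TAM receptor kinases, was at 146 CPM against 9.07 CPM (4.0, 3.79 to 4.22) and found in 60 of the 66 cells, while Tfdp1 (-0.50) and Tmco3 (0.24) lay within 2-fold. Next to Atp4a, 2200002J24Rik was at 171 CPM against 14.5 CPM (3.56, 3.38 to 3.74) and Cox6b1 at 1.62, whereas Ffar2 was at -4.0. Tmem147 (1.26) and Haus5 (1.04) were also higher there, and Rbm42 (0.46) and Sbsn (0.08) lay within 2-fold. Around Klk1, Klk1b16, Klk1b24, Klk1b3, Klk1b4 and Klk1b5 had ratios from 7.15 to 7.84. Of the other tested genes there, 1700028J19Rik was at 3.74 (2.93 to 4.57), 2410002F23Rik at 1.06 and Clec11a at -0.57. Genes beside each of the 3 loci thus included some at least 2-fold higher and some within 2-fold, and the cause was not tested.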

How the data were processed

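Counts are UMIs per gene and barcode, deposited by the authors as a sparse matrix of 32285 genes made with Cell Ranger 6.0.2 (file header) from 10x Chromium 3′ libraries, unnormalized; the submitters' notes name GRCm38, R 4.1 and Seurat 4.0.5. The deposited dense count tables were used as an alternative. The cell filter (500 genes, 1000 UMIs, up to 20% mitochondrial UMIs) and the depth are in the report. The members and gene lists were chosen with earlier results of these data known.

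UMIs were summed over cells and given as CPM. Intervals were exact (Poisson, conditional binomial, Clopper-Pearson, 95%). A group at 0 UMIs was set to 3 counts and the ratio is a bound. Genes needed 50 UMIs, and 2-fold was the call. With 1 library per group no test was made. Named genes are the given markers, and the 15 highest and 10 lowest ratios among genes with at least 200 UMIs, of the same direction with cells weighted equally and at 10000 to 50000 UMIs, and with a UMI in 10% of the higher group's cells. In lists they are the 2 most abundant and the 2 with the largest change, and acid secretion genes; any other gene named was chosen after its values were seen. Some genes these rules name are not reported here. The immune set had at least 5 immune marker UMIs making at least 0.1% of UMIs. Cells were clustered with scanpy 1.11.5 and leidenalg 0.10.2 at resolution 1, doublets called with Scrublet, and TMM taken from edgeR 4.0.16 (R 4.3.3), with Python 3.11.15, numpy 2.4.6, scipy 1.17.1 and pandas 2.3.3. Coordinates are from GENCODE M21 (GRCm38; 32158 of 32285 IDs matched) and promoter sequences from RefSeq (GRCm38.p6). AAGGTCA and TNAAGGTCA were searched first, and AGGTCA after sequences had been read. Computations were tested on simulated data.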

Additional observations from a re-analysis of the deposited data

Results flagged for a closer look

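Atp4b was also present in barcodes that the cell filter removed. The 508 removed EL1 barcodes held 40 Atp4b UMIs of 1210387 UMIs, or 33.0 CPM (23.6 to 45), in 9 barcodes. Of these, 4 had at least 2 UMIs (20, 8, 4 and 3), and all 4 had more than 20% mitochondrial UMIs. The 583 removed WTg barcodes held 2 Atp4b UMIs, or 1.07 CPM (0.130 to 3.88). The removed barcodes entered no comparison, and the level in EL1 was above that in WTg. Their part in the results was not tested beyond the alternative with all barcodes.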

How the results depend on the processing

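All marker ratios kept their direction under the alternatives, and so did the list medians except that of P-type ATPases, close to 0 at 0.03, which was -0.01 under a stricter filter (1000 genes, 5000 UMIs, up to 10% mitochondrial UMIs) and -0.02 at 5 or more Atp4b UMIs. No paired analysis was possible because the design has single libraries without replicate numbers. The Atp4b-positive share was 4.32% with all barcodes and 2.52% at 20 or more UMIs. With 20 or more Atp4b UMIs the log2 ratios were 8.61 (Atp4a), 6.40 (Klk1) and 4.94 (Esrrg); at 10000 to 50000 UMIs 6.39 (Klk1), 7.32 (Ldhb) and 4.19 (Esrrg); thinned to 5000 UMIs 9.05 (Atp4a), 6.16 (Klk1) and 5.0 (Esrrg). With each cell weighted equally they were 7.55 (Atp4a), 5.96 (Klk1), 6.81 (Ldhb) and 4.38 (Esrrg), and against the 3 sets alone 8.68 (Atp4a), 7.37 (Klk1) and 8.96 (Ldhb). Klk1 was 7.23 under the stricter filter, 6.86 without doublets and 6.49 without the 5 deepest cells. Genes at least 2-fold higher were 764 thinned and 6815 without a minimum (73.4% of calls higher, against 37.8%, with the median of all genes at 0.32), and lower 1348 thinned and 1366 with at least 200 UMIs. List medians moved as follows: acid secretion to 1.58 (10000 to 50000 UMIs) and 2.57 (200 UMIs); receptors to 1.06 (thinned); P-type ATPases to 0.39 (10000 to 50000 UMIs) and 0.35 (thinned); oxidative phosphorylation to 1.18 (equal weight); acinar enzymes to -0.99 (5 or more Atp4b UMIs), -1.24 (20 or more) and -0.42 (3 sets); neuroendocrine to -2.22 (thinned); immediate early to -1.09 (20 or more) and -0.94 (without the cells with Chga and Chgb). Shares with a UMI were 53% (Ldhb) and 33.3% (Esrrg) thinned to 2000 UMIs, and 100% (Klk1), 89.1% (Ldhb) and 79.7% (Esrrg) at 10000; unthinned they were 74.2% (Atp4a), 100% (Klk1 and Ldhb) and 92.4% (Esrrg). The leading cluster held 93.9% of the cells at resolution 0.5. The cause of these moves was not tested. Leaving out the deepest cells and the cells with Chga and Chgb were chosen after seeing the data. The islet list gave no value at 10000 to 50000 UMIs, thinned or at 200 UMIs. TMM moved ratios by 0.03, and equal weighting moved the median of all genes to -0.21. Counting error alone is covered by the intervals, and the spread between animals is unknown.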
